A study of Mus musculus with 9 samples.

Results

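Naive CD4+ T cells are held at rest and kept circulating through lymphoid organs by a small set of transcription factors and homing receptors, and 10 of these were followed here: Lef1, Tcf7, Klf2, Klf3, Foxo1, Foxp1, Bach2, Satb1, Ccr7 and S1pr1. The members were chosen by name with earlier results of these data known. A gene was read from a probe set that names it and no other gene. By that rule 9 of the 10 were measured, each by 1 probe set, among 19937 genes measured in all. Tcf7 is not analysed here. RNA was hybridised to Affymetrix mouse gene arrays, and each value is a log2 intensity, so that a difference of 1 stands for a doubling of signal.

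The study set lung T helper 2 (Th2) cells of mice with ovalbumin (OVA) driven allergic airway inflammation against naive T cells. There were 3 groups of 3 arrays. The naive group was CD4+ CD62L+ CD44- cells sorted from spleens after sham treatment, at day 29. The acute Th2 group was CD4+ CD69+ ST2+ cells from the lung at day 29, after 3 intraperitoneal injections of 10 µg OVA with 1.5 mg aluminium hydroxide on days 1, 14 and 21 and a 1% OVA aerosol on 3 consecutive days. The chronic Th2 group was sorted by the same surface proteins from the lung at day 104, after the same injections and 12 weeks of aerosol with 2 challenges per week. All 3 groups were, per the labels, then activated with antibodies to CD3 and CD28 for 8 h before RNA was extracted, the naive group included. Strain, age, sex and any pooling of animals were not stated in what was used here. Organ, sort gate and sensitisation differ together between the naive and the Th2 groups and cannot be told apart. Chronic and naive cells also differ in day, 104 against 29. Between the stages, day and aerosol schedule differ together and cannot be told apart either.

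LEF1 and its relative TCF1, the product of Tcf7, are HMG box proteins that bind DNA with beta-catenin or with repressors of the TLE family and set up T cell identity. FOXO1 is a forkhead factor that growth signals through PI3K and AKT drive out of the nucleus; while nuclear it promotes Klf2, Ccr7 and Il7r, and KLF2 in turn promotes S1pr1. CCR7 draws T cells into lymph nodes, S1PR1 lets them leave again, BACH2 holds back effector programmes, and SATB1 organises chromatin in the thymus and in peripheral T cells.

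The sorted cells carried T cell markers: all 6 measured genes of that list lay above the level that 95% of 1015 olfactory receptor genes stay under, a gauge of background that stood at 6.68. Markers of NK cells, dendritic cells, lung epithelium, neutrophils, and mast cells with basophils were all under that level in every group mean, 1 of 6 B cell and 1 of 7 macrophage genes passed it (Cd79b and Cd68), and so did 3 of 7 endothelial genes. Of 2 CD8 T cell genes, Cd8b1 passed it and read 7.89, 7.14 and 6.77 on naive arrays, with means of 6.70 in acute and 6.72 in chronic cells, and its differences of -0.56 and -0.55 were not called (limma, adjusted p = 0.278 and 0.190). Summed as a mean over the list, the B cell genes ran from 5.66 to 5.83 on naive, 5.61 to 5.71 on acute and 5.80 to 5.93 on chronic arrays. Background differed as well: the olfactory receptor median was 5.67, 5.51 and 5.15 on the chronic arrays and ran from 4.94 to 5.21 on the naive and acute arrays. Whether the B cell readings follow that background was not tested. Cd44, which the naive gate selects against, was 1.93 higher in acute (SE 0.18, limma, adjusted p = 0.000289) and 1.89 higher in chronic Th2 cells (SE 0.18, limma, adjusted p = 0.000334), and 1.96 and 1.92 higher without naive replicate 1.

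One array stood furthest from its own group before any comparison. Across genes, naive replicate 1 correlated with naive replicates 2 and 3 at r = 0.939 and r = 0.941, against r = 0.991 between those 2, where genes are not independent replicates. Its Il2 level was 5.07, against 11.33 and 11.27 on the other naive arrays, and Irf4, which T cell receptor signals induce, stood at 6.87 against 11.73 and 11.71. Fos, Fosb and Junb went the other way, at 9.49, 8.94 and 10.74. On naive replicates 2 and 3 Fos read 7.45 and 7.74, Fosb 7.53 and 7.68, and Junb 8.67 and 8.97. The median of 24 stimulation genes was 8.26 on naive replicate 1, 10.59 and 10.88 on naive replicates 2 and 3, and between 9.56 and 9.93 on the 6 Th2 arrays. The part of this low stimulation signal in the results was not tested, and it may not have been stimulated as labelled. Results for the members and for the genes named from related lists are therefore given with and without that array.

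Several of these factors were lower in lung Th2 cells than in splenic naive cells. Lef1, Bach2, Ccr7, Klf3 and Foxp1 fell in acute Th2 cells, 5 of 9 measured members, where 2.2% of all genes fell (limma, adjusted p under 0.05 over all genes). Lef1, Bach2, Ccr7 and Klf3 fell in chronic Th2 cells, 4 of 9, where 4.2% of all genes fell. As the members were chosen with earlier results known, the shares set beside them here and below are a description and not a test. No member rose in either comparison with all arrays, and leaving out 1 array in turn gave between 3 and 6 lower members in each. The median difference of the 9 members was -1.50 in acute and -1.54 in chronic Th2 cells, beside -0.03 and 0.04 over all genes. The naive group is shared by both comparisons, so they are not independent of each other. With bulk RNA, fewer cells that express a gene and less RNA per cell cannot be told apart.

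On the arrays themselves, 8 of the 9 members had all 6 Th2 values below all 3 naive values, a separation that 7.36% of all genes showed. Foxo1 was the exception. Without naive replicate 1, 6 members were lower in each comparison and Foxo1 was higher in both, where 6.11% of all genes fell and 6.05% rose in acute and 11.4% fell and 5.84% rose in chronic Th2 cells.

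**Figure D1:**
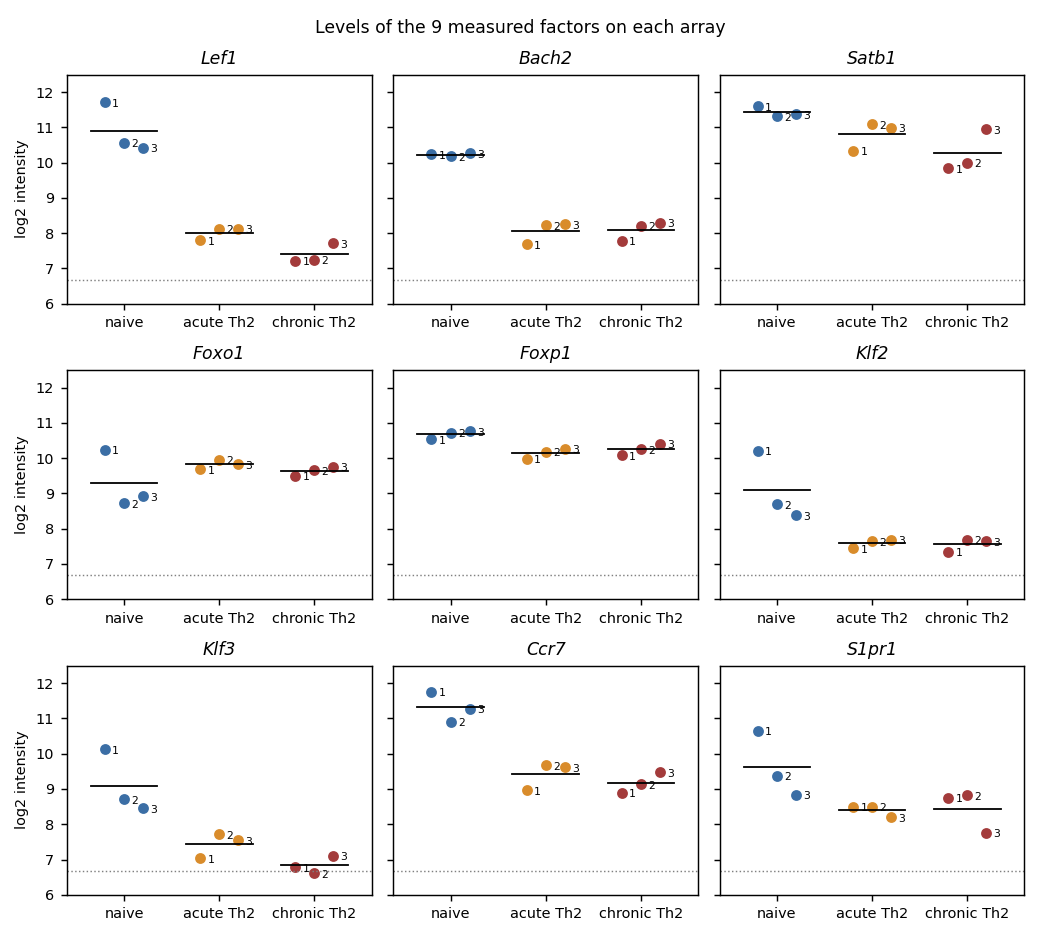
Log2 intensity of each of the 9 measured factors (vertical axis) on the 9 arrays, by group on the horizontal axis; points are arrays labelled with their replicate number, black lines are group means, and the dotted line marks the olfactory receptor background of 6.68. All Th2 points lie below all naive points in every panel but Foxo1, and naive replicate 1 is the highest array in 7 panels.

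Lef1 had the largest difference of the 9 members. The gene lies on chromosome 3 (GRCm38.p6, chr3:131110297-131224357). Its log2 level was 11.71, 10.56 and 10.42 on the naive arrays, 7.80, 8.13 and 8.13 on the acute arrays and 7.22, 7.25 and 7.72 on the chronic arrays. The 3 groups did not overlap, and the gap to the naive arrays was wider than the spread within any group. Group means were 10.90 ± 0.71 in naive, 8.02 ± 0.19 in acute and 7.40 ± 0.28 in chronic cells (SD, n = 3 each). Lef1 fell by 2.88 in acute Th2 cells (SE 0.32, limma, adjusted p = 0.000922), a 7.36-fold difference, and by 3.50 in chronic Th2 cells (SE 0.32, limma, adjusted p = 0.000283), an 11.3-fold difference. The olfactory receptor level of the chronic arrays was 7.14, 6.88 and 6.57, and Lef1 lay above it on all 3 but only just on replicate 1. The 11.3-fold difference thus includes an array near background. Leaving out naive replicate 1 gave differences of -2.47 and -3.10, and both calls held when any 1 of the 9 arrays was left out.

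Lef1 has several annotated starts, and 2 of its promoter windows are shown because they differ in the factor motifs they hold. Each window runs from 250 bases before to 50 bases after a RefSeq transcript start (GRCm38.p6, plus strand), with motif letters in capitals: CACCC, the core bound by KLF proteins, CTTTGA, the core bound by TCF and LEF proteins, and TAAACA, a forkhead core, each on either strand.
Lef1, chr3:131110047-131110346: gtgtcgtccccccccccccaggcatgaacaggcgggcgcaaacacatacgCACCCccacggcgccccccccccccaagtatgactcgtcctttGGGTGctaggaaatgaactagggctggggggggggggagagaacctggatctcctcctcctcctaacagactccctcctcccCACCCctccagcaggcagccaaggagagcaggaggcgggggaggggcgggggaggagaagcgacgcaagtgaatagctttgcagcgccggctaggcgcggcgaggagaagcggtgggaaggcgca
Lef1, chr3:131156044-131156343: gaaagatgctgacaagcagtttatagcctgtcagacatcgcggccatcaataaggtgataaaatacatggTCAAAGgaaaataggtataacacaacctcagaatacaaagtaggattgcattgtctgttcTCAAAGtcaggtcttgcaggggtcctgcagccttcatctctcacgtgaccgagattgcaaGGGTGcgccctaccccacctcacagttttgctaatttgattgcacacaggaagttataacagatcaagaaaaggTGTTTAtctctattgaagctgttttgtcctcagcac
The upstream window held 3 KLF cores, whose first bases lie at -200, -157 and -75 from the start base, and neither of the other motifs. The window of the downstream start held a TCF and LEF core at -180 and at -120, a KLF core at -60 and a forkhead core at 14. The array does not tell which start was used.

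Bach2, a repressor that competes with AP-1 proteins for DNA and limits effector differentiation, had naive arrays that barely differed, with an SD of 0.05. It lies at chr4:32238413-32586109. The naive arrays read 10.24, 10.18 and 10.27, the acute arrays 7.69, 8.23 and 8.26, and the chronic arrays 7.79, 8.21 and 8.29. All 3 naive arrays stood together well above the Th2 arrays, and naive replicate 1 did not stand out for this gene. Bach2 fell by 2.17 in acute (SE 0.18, limma, adjusted p = 0.000163) and by 2.13 in chronic Th2 cells (SE 0.18, limma, adjusted p = 0.000183), 4.51-fold and 4.38-fold. Leaving out any 1 array kept both calls, with differences between -2.27 and -1.98 over both comparisons. The promoter window at hand for Bach2 belongs to a start inside the gene span given above, not to the beginning of that span. It is shown for its single TCF and LEF core at -93, and held no KLF or forkhead core.
Bach2, chr4:32417185-32417484: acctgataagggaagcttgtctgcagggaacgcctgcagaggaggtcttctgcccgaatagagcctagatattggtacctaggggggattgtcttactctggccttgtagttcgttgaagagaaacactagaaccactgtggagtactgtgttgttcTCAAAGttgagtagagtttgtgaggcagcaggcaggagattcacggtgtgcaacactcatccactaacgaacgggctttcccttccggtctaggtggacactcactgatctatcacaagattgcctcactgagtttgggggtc

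Satb1, at chr17:51736187-51833290, read 11.60, 11.32 and 11.37 on the naive arrays, 10.34, 11.08 and 10.98 on the acute arrays and 9.84, 10.00 and 10.95 on the chronic arrays. All Th2 arrays were below the naive arrays, with acute replicates 2 and 3 and chronic replicate 3 the closest to them. The difference was -0.63 in acute (SE 0.30, limma, adjusted p = 0.358) and -1.16 in chronic Th2 cells (SE 0.30, limma, adjusted p = 0.0501), and neither passed the test. The chronic difference was called without acute replicate 1, at -1.16 (limma, adjusted p = 0.0495), and without chronic replicate 3, at -1.51 (limma, adjusted p = 0.00805). Its adjusted p ran from 0.00805 to 0.188 over the fits that each left out 1 array, and without naive replicate 1 the differences were -0.54 and -1.08 (limma, adjusted p = 0.420 and 0.0530).

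The forkhead genes Foxo1 and Foxp1 went separate ways. Foxo1, at chr3:52268337-52350109, was the one member whose Th2 levels were not below all naive levels. Its naive arrays read 10.24, 8.73 and 8.92, its acute arrays 9.69, 9.96 and 9.83, and its chronic arrays 9.51, 9.66 and 9.76. Naive replicate 1 was above every Th2 array, while naive replicates 2 and 3 were below every one. With all arrays the difference was 0.53 in acute (SE 0.34, limma, adjusted p = 0.542) and 0.35 in chronic Th2 cells (SE 0.34, limma, adjusted p = 0.528). Without naive replicate 1 Foxo1 rose by 1.00 in acute (SE 0.12, limma, adjusted p = 0.000723) and by 0.82 in chronic Th2 cells (SE 0.12, limma, adjusted p = 0.00192), so that 1 array decides this call. The promoter window of Foxo1 is shown because it held none of the motifs searched. A window of Satb1 (chr17:51832598-51832897) held none either.
Foxo1, chr3:52268087-52268386: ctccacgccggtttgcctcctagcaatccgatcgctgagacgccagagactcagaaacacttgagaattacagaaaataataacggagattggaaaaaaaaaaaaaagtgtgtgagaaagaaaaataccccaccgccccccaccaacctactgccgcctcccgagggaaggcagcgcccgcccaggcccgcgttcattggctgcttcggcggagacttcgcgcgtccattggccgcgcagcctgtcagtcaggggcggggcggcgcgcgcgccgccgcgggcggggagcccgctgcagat

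Foxp1, which in mouse T cells helps keep the naive state partly by limiting Il7r, changed least in size among the members that were called. The gene spans chr6:98925342-99522746. Naive arrays read 10.54, 10.72 and 10.77, acute arrays 9.99, 10.18 and 10.27, and chronic arrays 10.09, 10.26 and 10.41. The naive arrays lay just above the Th2 arrays, whose groups overlapped, and naive replicate 1 was the lowest naive array, unlike most other members. Foxp1 fell by 0.53 in acute Th2 cells (SE 0.12, limma, adjusted p = 0.0320), 1.44-fold, and differed by -0.42 in chronic Th2 cells (SE 0.12, limma, adjusted p = 0.0623). The acute call was lost without naive replicate 2 or 3, any acute array or chronic replicate 2, with adjusted p reaching 0.106, and the chronic difference was called without naive replicate 1 (adjusted p = 0.0244) or without chronic replicate 3 (adjusted p = 0.0427). The acute difference was -0.60 without naive replicate 1 (limma, adjusted p = 0.0126).

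The zinc finger genes Klf2 and Klf3 shared a steep step within the naive group. Klf2, the factor that promotes S1pr1, lies at chr8:72319062-72321654. It read 10.21, 8.69 and 8.38 on the naive arrays, 7.45, 7.65 and 7.68 on the acute arrays and 7.34, 7.68 and 7.65 on the chronic arrays. Every Th2 array was below every naive array, and naive replicate 1 lay 1.67 above the mean of the other 2. The differences of -1.50 in acute (SE 0.40, limma, adjusted p = 0.0711) and -1.54 in chronic Th2 cells (SE 0.40, limma, adjusted p = 0.0526) did not pass the test with all arrays. Without naive replicate 1 Klf2 fell by 0.95 (SE 0.14, limma, adjusted p = 0.00264) and by 0.98 (SE 0.14, limma, adjusted p = 0.00185), and without naive replicate 3 it fell by 1.86 and 1.89 (limma, adjusted p = 0.0325 and 0.0271).

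Klf3, a KLF protein that acts mostly as a repressor, lies at chr5:64803521-64832901. Its naive arrays read 10.13, 8.70 and 8.46, its acute arrays 7.04, 7.72 and 7.54, and its chronic arrays 6.78, 6.61 and 7.11. Every Th2 array was below every naive array, and chronic replicates 1 and 2 lay below the olfactory receptor level of their own arrays, 7.14 and 6.88, so that Klf3 was above background on 1 of 3 chronic arrays. Klf3 fell by 1.66 in acute (SE 0.40, limma, adjusted p = 0.0477) and by 2.26 in chronic Th2 cells (SE 0.40, limma, adjusted p = 0.0113), a 3.17-fold difference in acute cells. No fold is given for chronic cells because of the dim arrays. The differences became -1.15 (limma, adjusted p = 0.00772) and -1.75 (limma, adjusted p = 0.000716) without naive replicate 1. The acute call was lost without naive replicate 2 or any 1 Th2 array, with adjusted p up to 0.167, and the chronic call without chronic replicate 1 or 2, with adjusted p up to 0.0554. The Klf3 promoter window is shown because it held 5 KLF cores, at -230, -167, -120, -111 and -48, the most of any member window.
Klf3, chr5:64803271-64803570: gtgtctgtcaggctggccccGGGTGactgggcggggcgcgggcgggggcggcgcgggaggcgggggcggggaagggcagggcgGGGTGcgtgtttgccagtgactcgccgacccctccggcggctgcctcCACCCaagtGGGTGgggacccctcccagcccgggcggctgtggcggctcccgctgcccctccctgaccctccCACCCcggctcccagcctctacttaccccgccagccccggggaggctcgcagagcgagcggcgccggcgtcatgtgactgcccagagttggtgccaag

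Of the homing receptors, Ccr7 fell in both stages and S1pr1 did not pass the test in either. Ccr7, the receptor for lymph node chemokines CCL19 and CCL21, lies at chr11:99144199-99155077. The naive arrays read 11.76, 10.91 and 11.28, the acute arrays 8.96, 9.67 and 9.62, and the chronic arrays 8.90, 9.13 and 9.47. The lowest naive array was above the highest Th2 array by more than the range of either Th2 group. Ccr7 fell by 1.90 in acute (SE 0.26, limma, adjusted p = 0.00339) and fell by 2.15 in chronic Th2 cells (SE 0.26, limma, adjusted p = 0.00174), 3.73-fold and 4.44-fold. Leaving out naive replicate 1 gave -1.68 and -1.93, and both calls held when any 1 array was left out.

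S1pr1, the receptor for sphingosine 1-phosphate that T cells need to leave lymphoid organs, lies at chr3:115710433-115715055. Its naive arrays read 10.65, 9.38 and 8.84, its acute arrays 8.49, 8.49 and 8.19, and its chronic arrays 8.75, 8.82 and 7.76. Naive replicate 3 lay only just above chronic replicates 1 and 2, and chronic replicate 3 was the lowest array, whereas it was the highest chronic array for 7 of the 9 members. The differences were -1.23 in acute (SE 0.45, limma, adjusted p = 0.193) and -1.18 in chronic Th2 cells (SE 0.45, limma, adjusted p = 0.144), with 95% intervals of -2.25 to -0.22 and -2.20 to -0.17. No single array left out brought either below the threshold, and without naive replicate 1 the differences shrank to -0.72 and -0.67. CD69 protein, which both lung gates required, binds S1PR1 and takes it off the cell surface. The Cd69 transcript read 10.59, 12.08 and 12.20 on the naive arrays, 10.77, 11.34 and 11.23 on the acute arrays and 10.24, 10.22 and 11.14 on the chronic arrays. It did not pass the test in either comparison, and without naive replicate 1 it was 1.02 lower in acute (limma, adjusted p = 0.0443) and 1.61 lower in chronic Th2 cells (limma, adjusted p = 0.00462).

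**Figure D2:**
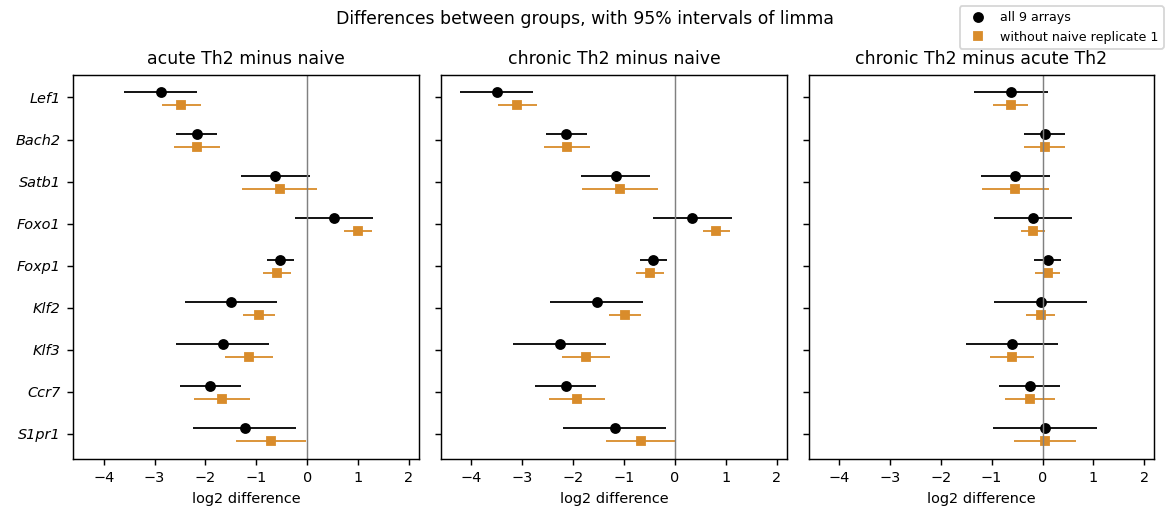
Log2 differences between group means for the 9 members (horizontal axis; gene on the vertical axis) in the 3 comparisons, with all 9 arrays (black circles) and without naive replicate 1 (orange squares); bars are 95% intervals of the limma fit. Lef1, Bach2 and Ccr7 lie far left of 0 against naive cells in both fits, Foxo1 lies right of 0, and the chronic minus acute differences all have intervals that include 0 with all arrays.

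Between the stages, no member was called. Of all genes, 0.015% were called lower in chronic than in acute Th2 cells, 3 genes, and 3 were called higher (limma, adjusted p under 0.05). None of the 9 members had an unadjusted p under 0.05 either, against 2962 of 19937 genes, while 2 had one without naive replicate 1: Lef1 (95% interval -0.97 to -0.28, limma, adjusted p = 0.138) and Klf3 (-1.03 to -0.17, limma, adjusted p = 0.174). With the 6 Th2 arrays alone, 2 members had an unadjusted p under 0.05. Lef1 had the largest difference, -0.62 (95% interval -1.34 to 0.10, limma, adjusted p = 0.368). It was the one member whose acute and chronic arrays did not overlap, a pattern that 10.8% of all genes showed in that direction. Klf3 differed by -0.60 (95% interval -1.51 to 0.31), Satb1 by -0.54 (-1.22 to 0.14) and Ccr7 by -0.25 (-0.85 to 0.35). With all arrays, the intervals of Klf2, from -0.95 to 0.87, and of S1pr1, from -0.97 to 1.06, were wide in both directions. That of Bach2 ran from -0.37 to 0.45 and that of Foxp1 from -0.16 to 0.37. The naive arrays enter this comparison only through the shared estimate of the spread. Without naive replicate 1 the intervals ran from -0.32 to 0.25 for Klf2 and from -0.57 to 0.67 for S1pr1. They ran from -0.36 to 0.45 for Bach2, -0.14 to 0.35 for Foxp1, -1.20 to 0.12 for Satb1 and -0.74 to 0.24 for Ccr7.

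In order of level, the naive arrays came first for every measured member but Foxo1. Acute and chronic arrays overlapped for every measured member but Lef1. Chronic replicate 3 was the highest chronic array for 7 members and acute replicate 1 the lowest acute array for 8. Satb1 showed this most, with chronic replicate 3 at 10.95 against 9.84 and 10.00. Across genes, which are not independent replicates, chronic replicate 3 correlated with acute replicates 2 and 3 at r = 0.988 and r = 0.991. With chronic replicates 1 and 2 it correlated at r = 0.980 and r = 0.985. The median of the 24 stimulation genes was 9.59, 9.56 and 9.91 on the chronic arrays. Whether the member levels follow these was not tested. When naive replicate 1 and chronic replicate 3 were both left out, a setting chosen after the data were seen, Lef1 was lower in chronic than in acute cells by 0.79 (limma, adjusted p = 0.0239) and Satb1 by 0.88 (limma, adjusted p = 0.0494), where 2.61% of all genes were called lower.

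The members also differed in how naive replicate 1 stood to the other naive arrays. Lef1, Klf2, Klf3, Foxo1 and S1pr1 were over 1 higher there than the mean of naive replicates 2 and 3, by 1.22, 1.67, 1.55, 1.42 and 1.54. Of all genes, 3.79% were over 1 higher on that array and 4.37% over 1 lower, while naive replicates 2 and 3 differed by over 1 in 0.206% of genes. Ccr7 was 0.67 and Satb1 0.25 higher on naive replicate 1, Bach2 differed by 0.02 and Foxp1 by -0.20. The high arrays of Klf2, Klf3, Foxo1, S1pr1 and Lef1 were thus the same array on which Il2 and Irf4 were low.

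**Figure D3:**
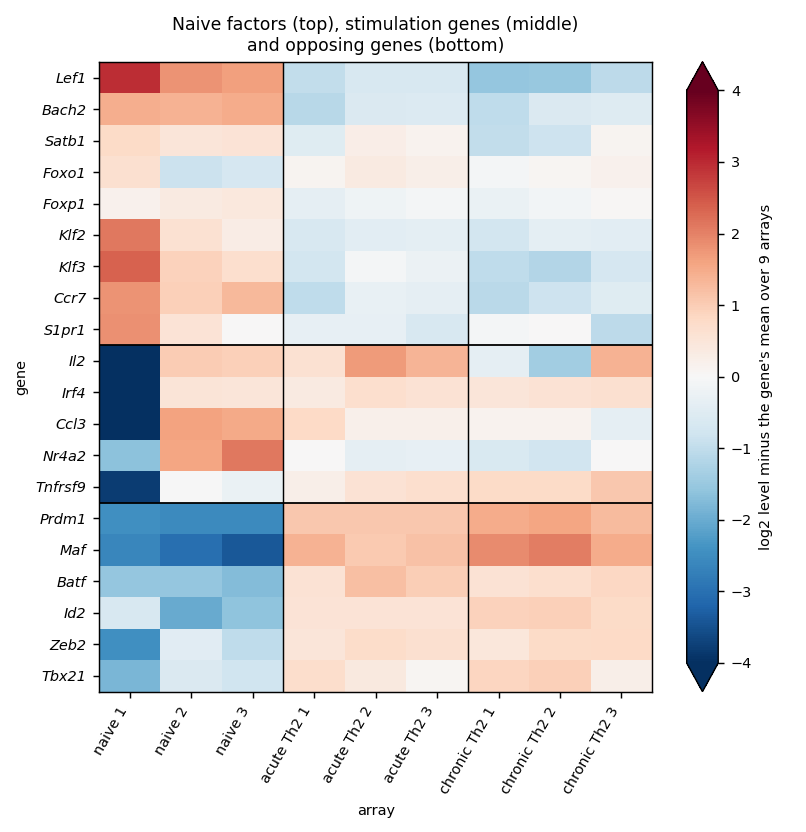
Log2 level minus each gene's mean over the 9 arrays (colour scale, limits at -4 and 4), with arrays across and genes down: the 9 members at the top, 5 stimulation genes picked for display after their values were seen in the middle, and 6 genes that oppose the naive programme at the bottom. On naive replicate 1 the middle block is low, with Il2 at 5.07 and Irf4 at 6.87, while Klf2 at 10.21 and Klf3 at 10.13 are at their highest. The stimulation genes Fos, Fosb and Junb, which were higher on that array than on the other naive arrays, are not shown.

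Among the members, profiles over the 9 arrays, each centred on its own mean, were closest for Bach2 and Ccr7, with a root mean square difference of 0.24. Next came Klf3 and Ccr7 at 0.33, Klf2 and Klf3 at 0.36, and Klf2 and S1pr1 at 0.38. Foxo1 lay far from Lef1, at 1.73. These distances describe 9 arrays that share groups and the odd naive array. The 5 other genes nearest to the members' mean profile, out of 18586 candidates, were Zfp652 (0.12), Rab3ip (0.14), Znrf3 (0.15), Ssbp2 (0.15) and Cbx7 (0.16). Zfp652 read 9.55, 8.53 and 8.26 on naive arrays and between 7.23 and 7.64 on Th2 arrays. Znrf3, which encodes a ubiquitin ligase that removes Wnt receptors, read 9.36, 8.32 and 8.56 on naive arrays and between 6.83 and 7.25 on Th2 arrays.

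Genes around the FOXO1 and KLF2 axis mostly did not pass the test. Of 10 listed targets 8 were measured, and of the 5 that are not members 1 fell in each comparison and none rose, with list medians of -0.62 and -0.76. The medians rest on naive replicate 1, since they were -0.08 and -0.06 without it. The gene that fell was Pik3ip1, an inhibitor of PI3K, which read 9.32, 8.05 and 7.63 on naive arrays and between 6.55 and 6.83 on all Th2 arrays. It was above background on 1 of 3 chronic arrays. It fell by 1.64 in acute (SE 0.36, limma, adjusted p = 0.0324) and by 1.67 in chronic Th2 cells (SE 0.36, limma, adjusted p = 0.0266). The acute call was lost without naive replicate 2 or any 1 Th2 array and the chronic call without acute replicate 2 or 3 or chronic replicate 1 or 2, while without naive replicate 1 the differences were -1.14 and -1.18 (limma, adjusted p = 0.000888 and 0.000674). Il7r, the receptor chain for the survival cytokine IL-7, differed by -0.05 in acute (limma, adjusted p = 0.959) and 0.41 in chronic Th2 cells (limma, adjusted p = 0.253). Without naive replicate 1 it rose by 0.63 in chronic Th2 cells (limma, adjusted p = 0.0281) and differed by 0.17 in acute cells (limma, adjusted p = 0.672).

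Of 22 other quiescence genes, 3 fell in acute and 4 in chronic Th2 cells and none rose, with a list median of -0.27 in both. Leaving out naive replicate 1 gave 4 lower and 1 higher in acute and 5 lower and 2 higher in chronic Th2 cells, with medians of -0.11 and -0.05. Called only in that fit were Vsir, at -1.4 and -1.73, Ets1, at 0.65 and 0.69, and in chronic cells Zfp36l2, at 0.42. Id3, an inhibitor of E proteins, read 6.42, 7.05 and 6.82 on naive arrays and was not above background on any Th2 array, where it read between 5.67 and 5.96. It was called lower in both (limma, adjusted p = 0.00731 and 0.0107, and 0.000365 and 0.000519 without naive replicate 1). Against the background level of the Th2 arrays, a floor taken as the olfactory receptor level of each array, it was at least 1.23-fold lower in acute cells, and no fold can be given for chronic cells. Btg2, an antiproliferative gene that promotes mRNA decay, fell by 1.45 (SE 0.27, limma, adjusted p = 0.0141) and fell by 1.43 (SE 0.27, limma, adjusted p = 0.0142), and by 1.16 and 1.14 without naive replicate 1. Pik3ip1, above, was the third, and Tsc2, a brake on mTOR, fell by 0.37 in chronic Th2 cells (SE 0.08, limma, adjusted p = 0.0338), and by 0.42 without naive replicate 1. Id3 kept its calls for acute and chronic cells in 9 and 8 of 9 fits that each left out an array, Btg2 in 7 and 7 and Tsc2 in 2. As single arrays were left out, the number that fell ran from 1 to 4 in acute and from 0 to 5 in chronic Th2 cells, and the number that rose from 0 to 1 and from 0 to 2.

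None of 11 measured homing and egress genes outside the members was called against naive cells by limma, with 2 at an unadjusted p under 0.05 in each comparison and list medians of 0.0022 and 0.12. With naive replicate 1 left out, 1 rose in acute, and 2 rose and 1 fell in chronic Th2 cells, with medians of 0.04 and 0.18. Cxcr4, the receptor for the bone marrow chemokine CXCL12, differed by 0.64 in acute and 0.68 in chronic Th2 cells (limma, adjusted p = 0.548 and 0.323), and by 1.20 and 1.23 without naive replicate 1 (limma, adjusted p = 0.00406 and 0.00294). Itgal, the alpha chain of LFA-1, differed by 0.0022 in acute and by -0.44 in chronic Th2 cells (limma, adjusted p = 0.999 and 0.108), and without naive replicate 1 the chronic difference was -0.60 (limma, adjusted p = 0.00630).

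Relatives of the members gave mixed directions. Of 15 other KLF genes, with list medians of -0.11 and -0.02, 1 rose and none fell with all arrays: Klf12, a repressor of the family, which read between 4.99 and 5.38 on naive, 6.16 and 6.27 on acute and 6.60 and 6.79 on chronic arrays. It was called higher in acute (limma, adjusted p = 0.000937) and in chronic Th2 cells (limma, adjusted p = 8.89e-05), also without naive replicate 1. It was above background on no naive or acute array and on 1 of 3 chronic arrays. The difference is therefore between levels at or near background, and no fold can be given for either comparison. Leaving out naive replicate 1 gave 2 KLF genes higher and 2 lower in acute, and 2 higher and 3 lower in chronic Th2 cells, with medians of -0.06 and -0.07. Klf6, a KLF gene of activated cells, was then 1.52 and 1.49 higher (limma, adjusted p = 0.00403 and 0.00378). Of 9 measured FOX, TCF, BACH and SATB relatives, 1 rose and 2 fell in each comparison, with list medians of -0.20 and -0.17, and of -0.17 and -0.05 with the same counts without naive replicate 1. Foxp3, which marks regulatory T cells and is induced in some activated cells, rose by 1.41 (SE 0.17, limma, adjusted p = 0.00148) and by 1.13 (SE 0.17, limma, adjusted p = 0.00502), and by 1.35 and 1.07 without naive replicate 1. Foxp4 fell by 0.97 and 1.04 (SE 0.23, limma, adjusted p = 0.0431 and 0.0280) and Bach1 by 0.83 and 0.80 (SE 0.20, limma, adjusted p = 0.0445 and 0.0436). In the fit without naive replicate 1, Foxp4 fell by 1.20 and fell by 1.27, and Bach1 fell by 1.07 and fell by 1.03. Klf12 and Foxp3 kept both calls in all 9 fits that each left out an array, while the acute calls of Foxp4 and Bach1 held in 1 of 9 and their chronic calls in 4 and 2.

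Among 9 measured partners and targets of TCF and LEF proteins, Tle4 was the one gene called, and the list medians were -0.02 and 0.01. The fit without naive replicate 1 added Tle3, a relative of Tle4, which was then 0.72 and 0.64 higher (limma, adjusted p = 0.00452 and 0.00671), and gave list medians of 0.04 and -0.06. Tle4 encodes a corepressor that LEF1 and TCF1 recruit. It read 9.48, 8.19 and 8.33 on naive, 7.01, 7.32 and 7.19 on acute and 6.55, 6.70 and 7.23 on chronic arrays, of which 1 was above background. It fell by 1.50 (SE 0.32, limma, adjusted p = 0.0304) and by 1.84 (SE 0.32, limma, adjusted p = 0.0110). The acute call was lost without any 1 acute array or without chronic replicate 1 or 2, and the chronic call without chronic replicate 1 or 2. Leaving out naive replicate 1 gave differences of -1.09 and -1.43 (limma, adjusted p = 0.00566 and 0.00115).

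Of 13 genes that oppose the naive programme, 6 rose in each comparison, none fell in acute and 2 fell in chronic Th2 cells, with list medians of 1.46 and 1.69, where 3.67% of all genes rose in acute and 3.68% in chronic Th2 cells. This list too was chosen with earlier results of these data known, so these shares are a description and not a test. When naive replicate 1 was left out, 7 rose and 2 fell in acute and 6 rose and 4 fell in chronic Th2 cells, and the list medians were 0.66 and 0.16. Myc, which drives cell growth, was then 0.89 and 1.13 lower (limma, adjusted p = 0.00620 and 0.00154). Maf, a factor of Th2 and follicular cells, read 6.85, 6.43 and 6.04 on naive arrays and between 10.48 and 11.48 on Th2 arrays, and rose by 4.21 (SE 0.22, limma, adjusted p = 8.56e-06) and 4.81 (SE 0.22, limma, adjusted p = 3.85e-06). It was above background on 2 of 3 naive arrays, and the differences were 4.41 and 5.01 without naive replicate 1. Prdm1, the gene of the Blimp-1 repressor, which BACH2 holds down, read 6.28, 6.18 and 6.18 on naive arrays, 9.80, 9.82 and 9.80 on acute arrays and 10.22, 10.32 and 10.01 on chronic arrays. It was above background on no naive array and was at least 10.5-fold higher in acute (limma, adjusted p = 1.74e-07) and at least 13.6-fold higher in chronic Th2 cells (limma, adjusted p = 8.23e-08), and the calls held without naive replicate 1. The AP-1 family gene Batf rose by 2.54 and 2.30, and Id2, which like Id3 inhibits E proteins, by 1.96 and 2.28. Zeb2 and Tbx21 rose as well, by 1.94 and 1.99 and by 1.46 and 1.75, each above background on 2 of 3 naive arrays. With naive replicate 1 left out, Batf rose by 2.56 and 2.33, Id2 by 2.34 and 2.67, Zeb2 by 1.36 and 1.42 and Tbx21 by 1.08 and 1.37. Mtor and Rptor, both of the growth kinase complex mTORC1, fell by 0.46 and 0.41 in chronic Th2 cells (limma, adjusted p = 0.0277 and 0.0408), and at -0.55 and -0.34 stayed called without naive replicate 1. Maf, Prdm1, Batf and Id2 kept both calls in all 9 fits that each left out an array, Zeb2 in 2 and 4, Tbx21 in 3 and 7, and Mtor and Rptor in 3 each. As single arrays were left out, between 4 and 7 genes of the list rose and 0 to 2 fell in acute, and between 4 and 6 rose and 0 to 4 fell in chronic Th2 cells.

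**Figure D4:**
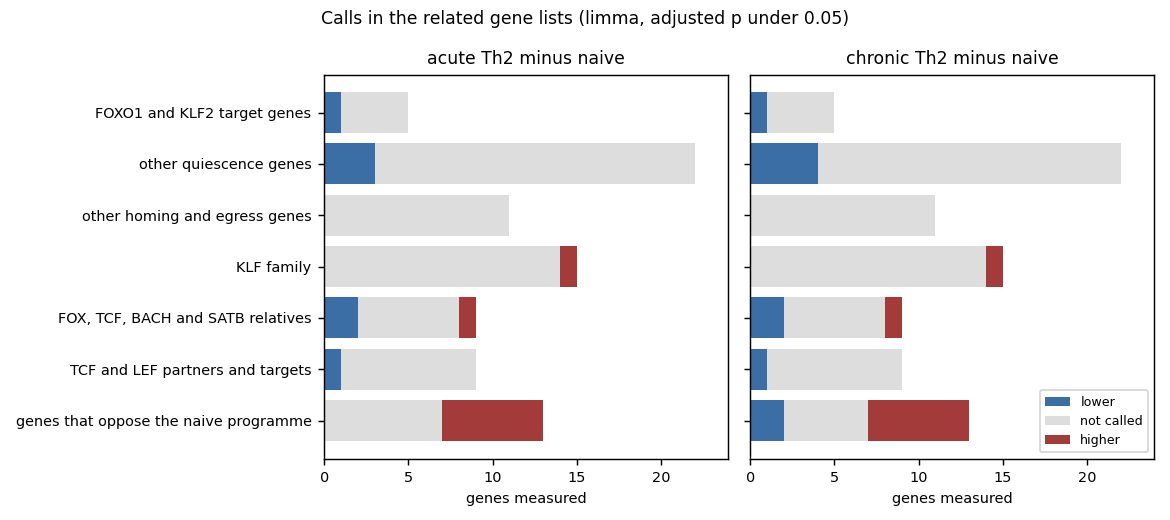
Number of measured genes in each related list (horizontal axis) that were called lower (blue), called higher (red) or not called (grey) by limma at an adjusted p under 0.05, for acute (left) and chronic Th2 cells (right) against naive cells; members are left out of the counts. The list that opposes the naive programme has 6 genes higher in each panel, and no other list has more than 1.

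Promoter motifs did not set the members apart as a simple count. RefSeq windows were at hand for 7 of the 9 measured members, 16 windows in all, beside 32851 windows over all genes. A KLF core (CACCC) lay in 12 of the 16 windows (75.0%) and in 57.5% of all windows. A TCF and LEF core (CTTTGA) lay in 3 windows (18.8%) of Lef1, Bach2 and Foxp1, and in 16.0% of all windows. A forkhead core (TAAACA) lay in 4 windows (25.0%) of Lef1 and Foxp1, and in 13.4% of all windows. Windows of 1 gene can share bases. The AP-1 type site TGACTCA was in none of the 16 and in 5.2% of all windows. Both strands were searched, and in 1 Foxp1 window the forkhead and KLF matches overlap. A match is a stretch of letters and was not tested as a bound site.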

How the data were processed

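Per the submitters' processing notes the arrays were processed with RMA and limma; for versions, build and annotation the sources used here gave nothing. The deposited series table holds log2 intensities of 34760 probe sets on 9 arrays, made by the authors, with values from 2.14 to 13.99 and array medians from 6.43 to 6.56. Of the probe sets, 21640 name 1 gene, 1321 several and 11799 none; a gene with several was read from the brightest, leaving 19937 genes. Groups were compared with limma 3.58.1 in R 4.3.3 on all 9 arrays, two-sided, with Benjamini-Hochberg adjustment over all genes and calls at an adjusted p under 0.05. The labels call arrays of a group biological replicates without naming animals, so p-values measure the spread between these samples, and 3 arrays per group limit the precision. An exact permutation of 3 against 3 cannot go below 0.1. The fit was also run on simulated data with independent noise and the same spread in all groups for each gene. That setting held no deviating array, so it does not bear on naive replicate 1. Alternatives were a replicate block, array weights, other moderation, normalisation, filter, probe set rule and threshold, the compared arrays alone, and leaving out arrays. Genes named in the text were the members and, from each related list, up to 4 called genes with the largest differences in a comparison or up to 2 others. From the list that opposes the naive programme all genes called with all arrays were named. Some genes called only without naive replicate 1 were named as well. The members and lists were chosen with earlier results of these data known. Promoter windows are RefSeq's (GRCm38.p6).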

Additional observations from a re-analysis of the deposited data

How the results depend on the processing

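With 3 arrays per group and 1 naive array apart, counts moved more than directions. Acute members lower, 5 as reported, became 3 with the 6 compared arrays alone, with arrays set to the same median or at an adjusted p under 0.01, and ran from 3 to 6 as arrays were left out in turn; acute genes called, 1171, became 4019 with array weights, 762 with 6 arrays and 598 at the stricter threshold, with a range of 653 to 2424. Chronic members lower, 4, became 7 with array weights (range 3 to 6), and chronic genes called, 1571, became 4675, 686 and 624 in the same order (range 734 to 3438). Quantile normalisation again gave 800 higher and 599 lower chronic calls, against 734 and 837. Between stages, 0 members became 4 lower with array weights (range 0 to 0), and 6 genes became 6721 with array weights, 3 with trended robust moderation, 2 with 6 arrays, and 0 with the replicate block or at an adjusted p under 0.01 (range 0 to 12). Array weights gave naive replicate 1 a weight of 0.165 and acute replicate 3 one of 8.23. Without naive replicate 1 and chronic replicate 3, chosen after the data were seen, members lower were 7, 7 and 2 and genes called 2624, 4665 and 1087 in acute, chronic and between stages. The cause of these moves was not tested.

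Same-numbered arrays did not deviate together in every pair, with correlations from -0.085 to 0.572, so the numbers were not taken to pair samples. With the replicate block 4, 6 and 0 members were lower and 1261, 1844 and 0 genes called. Against naive cells no member changed direction under any alternative run. Between stages, where no member was called, Klf2 turned to 0.019 with quantile normalisation again, Bach2 to -0.078 with array weights, -0.036 at the same median and -0.055 without naive replicate 1 and chronic replicate 3, and S1pr1 to -0.029 at the same median. As arrays were left out in turn, these differences ran from -0.106 to 0.071 for Klf2, from -0.14 to 0.20 for Bach2 and from -0.14 to 0.39 for S1pr1.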

Other observations

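Candidates here were 18594 genes, again without provisional names or immunoglobulin and T cell receptor segments. For each member, the candidate with the nearest profile over the 9 arrays was named, with each profile centred on its own mean. For Foxo1 it was Runx3, a Runt factor of effector T cells, at a root mean square difference of 0.11. Runx3 read 9.20, 7.80 and 8.07 on naive arrays, 8.99, 9.03 and 8.95 on acute arrays and 8.62, 8.53 and 8.84 on chronic arrays, so it too was highest on naive replicate 1 and lowest on naive replicates 2 and 3. For Bach2 it was Il21r, the receptor chain for IL-21, at 0.18: 9.72, 9.83 and 9.56 on naive arrays, and between 7.23 and 7.97 on Th2 arrays. For S1pr1 it was Ccnd3, which encodes cyclin D3, at 0.22, with chronic replicate 3 the lowest array at 7.50. For Satb1 it was Msn, which encodes the cytoskeletal linker moesin, at 0.18, with chronic replicate 3 at 10.31 and chronic replicates 1 and 2 at 9.46 and 9.62. The others were Tmem71 for Lef1 (0.21), Snora69 for Klf2 (0.12), Smc6 for Klf3 (0.21), Spryd7 for Foxp1 (0.06) and Utrn for Ccr7 (0.19).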
